A study of Mus musculus with 8 samples.

Results

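A set of 9 markers of resting and activated tumour fibroblasts was followed across 8 mouse mammary tumours. The genes are Fap, Thy1, Pdpn, Dpt, Pi16, Cd34, S100a4, Il6 and Has2, and they were found by matching the RefSeq accession of each array probe to these symbols. The array held 12 probes in 22 spots for these 9 genes, of 21368 genes that could be named and 55681 distinct probes. Gene expression was measured on 2-colour Agilent arrays, 1 array per tumour, with 4 tumours labelled FGFR1 KO and 4 labelled WT. FGFR1 KO tumours came from K19-tva mice that also carry 2 loxP-flanked copies of Fgfr1 (K19-tva/fgfr1loxP/loxP), and WT tumours came from K19-tva mice without that allele. Both groups therefore share the K19-tva transgene, which by its name places tva, the receptor of an avian virus, under the Krt19 promoter. All mice were on the FVB background, to which the floxed allele had been backcrossed from ICR. The labels give no age and no time of tumour collection, do not say which agent removed the floxed segment or started the tumours, and do not say that each tumour came from its own mouse. A p-value here measures the spread between these 8 samples only.

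Fibroblasts make and remodel the collagen-rich matrix of the mammary stroma. In healthy tissue they sit in a quiet state, with an adventitial population near vessels and fat that carries Pi16, Dpt and Cd34. Within tumours they can turn into activated fibroblasts, which carry the surface protease Fap and podoplanin and secrete matrix, hyaluronan and cytokines such as interleukin 6. None of these markers belongs to fibroblasts alone: Cd34 also marks endothelial cells and blood progenitors, Thy1 marks T cells, Pdpn marks lymphatic endothelium and S100a4 marks macrophages.

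Each value is the log2 ratio of red, taken as tumour RNA, to green, taken as a common human reference RNA, and each difference is FGFR1 KO minus WT. The labelling protocol gives these dyes, although the label field names only cy3. The median SD within groups was 0.269 and 0.367 in red against 0.165 and 0.189 in green for FGFR1 KO and WT, over all probes tested. Red spots well above background, as Feature Extraction flags them, were 68.9% to 83.9% of all in FGFR1 KO and 43.9% to 69.2% in WT. WT 2 was the array least like the rest: its correlations across probes averaged 0.379, and those of the other 7 averaged 0.598 to 0.713. All 8 arrays lay on 1 slide, FGFR1 KO in one row and WT in the other, so a row effect cannot be told apart from genotype. The 3 probes of the targeted gene, Fgfr1, differed by 0.00, -0.10 and -0.49 (limma, adjusted p = 1.0, 0.951 and 0.841), and since the sources used here do not place them relative to the floxed segment, they check no label.

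A part of the array, which begins at Row 97 and Col 83, runs to the last column and holds 31.3% of the spots, was bright at negative-control spots on the WT arrays. Inside it, 17.7% to 46.9% of the 96 negative controls exceeded their local background by over 50 red units on the 4 WT arrays, and 0% on the FGFR1 KO arrays. Outside it, at most 0.943% of 212 did so on any array. The spots of Pdpn (Row 221, Col 131 and Row 283, Col 91), Pi16 (Row 247, Col 112), Has2 (Row 302, Col 141) and the second probe of Cd34 (Row 234, Col 145) lay inside. The spots of Fap (Row 329, Col 77), Thy1 (Row 29, Col 112), the first probe of Cd34 (Row 1, Col 83) and both probes of S100a4 (Row 53, Col 26 and Row 373, Col 11) lay outside. Dpt had 4 of its 10 spots inside and Il6 had 1 of 2, at Row 236, Col 133.

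The genotype comparison asked whether fibroblast markers differ between tumours with and without floxed Fgfr1. All 8 markers that could be tested had a difference below 0, from -2.24 for Dpt to -0.08 for Has2, and 0 of 8 passed limma's test over all probes (adjusted p from 0.247 to 0.922). Of all 39775 probes tested, 4 passed, or 0.0101%, and none of these 4 is named through RefSeq. At an unadjusted p under 0.05, 5 of the 8 markers lay lower in FGFR1 KO (Dpt, Fap, S100a4, Thy1 and Cd34), against 4.78% of the 16754 genes tested, and 0 lay higher, against 3.1%. Of the 8, 4 (Dpt, Fap, S100a4 and Thy1) had each FGFR1 KO array below the lowest WT array, against 2.45% of genes. Over all genes, 50.4% had a difference below 0. The markers were chosen with earlier results of these data known, so these counts describe the markers and are no independent support for a direction. Fewer fibroblasts and less RNA per fibroblast cannot be told apart in bulk tumour RNA.

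**Figure D1:**
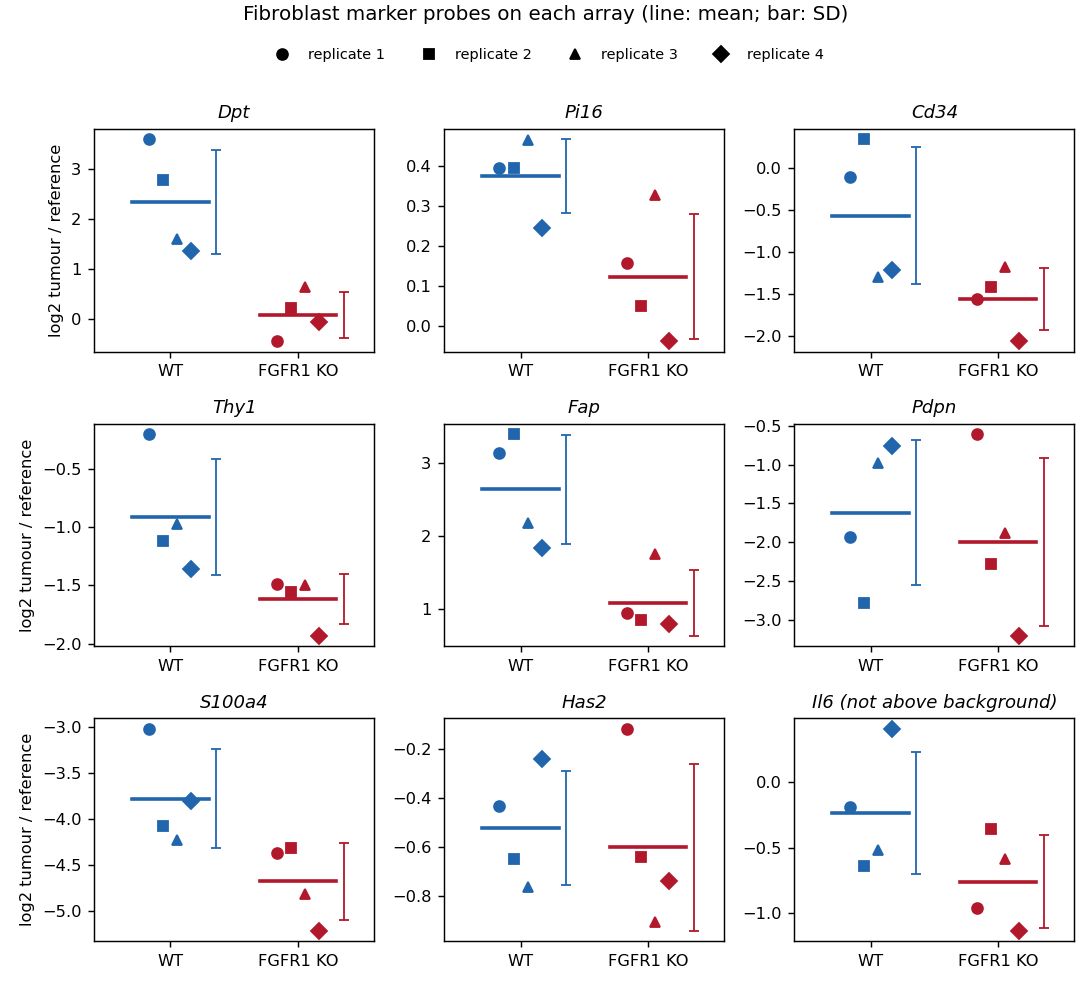
Log2 ratio of tumour to reference (vertical axis, a separate scale in each panel) for the probe that represents each marker, on the 4 WT arrays (blue) and the 4 FGFR1 KO arrays (red). Symbols stand for replicate numbers, horizontal lines for group means and bars for the SD. Dpt, Fap, Thy1 and S100a4 do not overlap between the groups, Cd34, Pi16, Pdpn and Has2 do, and Il6 was not well above background.

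Among markers with a lower FGFR1 KO mean, 3 with a promoter in the RefSeq table of build GRCm38.p6 were chosen, and the 250 bases before each start are shown to set them side by side. The table held 6 of the 9 members. Capitals mark an exact match on either strand to a STAT-type motif (TTCNNNGAA), a TATA box (TATAAA), an AP-1 motif (TGANTCA) or a GC box (GGGCGG). The Dpt window is chr1:164796413-164796662, that of S100a4 is chr3:90603520-90603769 and that of Cd34 is chr1:194938571-194938820, all on the plus strand.
Dpt: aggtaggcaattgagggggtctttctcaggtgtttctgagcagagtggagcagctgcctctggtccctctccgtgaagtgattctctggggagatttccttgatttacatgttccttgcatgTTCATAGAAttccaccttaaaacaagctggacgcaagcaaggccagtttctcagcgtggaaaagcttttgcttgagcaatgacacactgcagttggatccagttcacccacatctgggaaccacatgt
S100a4: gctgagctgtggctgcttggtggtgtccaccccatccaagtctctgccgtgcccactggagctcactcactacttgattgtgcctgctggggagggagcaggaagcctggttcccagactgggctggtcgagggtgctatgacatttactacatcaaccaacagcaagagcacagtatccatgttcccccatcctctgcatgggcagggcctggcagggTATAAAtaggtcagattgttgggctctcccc
Cd34: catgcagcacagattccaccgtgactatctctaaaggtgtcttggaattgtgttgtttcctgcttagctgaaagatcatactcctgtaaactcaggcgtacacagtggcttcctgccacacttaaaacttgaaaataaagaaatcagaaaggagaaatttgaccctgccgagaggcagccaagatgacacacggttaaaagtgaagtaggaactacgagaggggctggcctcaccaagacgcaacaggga
Dpt held 1 STAT-type match, starting 128 bases before the start, and S100a4 held 1 TATA box, 31 bases before it. The Cd34 window held none of these 4 motifs. Over 32851 windows of this length, 7.02% held the STAT-type motif, 12.4% the TATA box, 6.75% the AP-1 motif and 32.7% the GC box. The 3 windows share no match among these letters, and the matches are a description, not binding sites.

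Dpt, which encodes dermatopontin, a small matrix protein that binds decorin and helps collagen fibrils assemble, showed the greatest difference of the 8. Its 1 probe, A_51_P116651, is printed as 10 spots spread over the array, so each tumour has a value with its own technical spread. The mean log2 ratio was -0.44, 0.23, 0.65 and -0.05 on FGFR1 KO 1 to 4 and 3.59, 2.78, 1.60 and 1.37 on WT 1 to 4. The groups do not overlap, with 0.73 between the lowest WT array and the highest FGFR1 KO array, and WT 1 and WT 2 lie above WT 3 and WT 4. FGFR1 KO tumours averaged 0.10 ± 0.46 (SD, n = 4) and WT tumours 2.34 ± 1.04 (SD, n = 4), a difference of -2.24 ± 0.48 (SE; limma, adjusted p = 0.247). The FGFR1 KO level rests on 1 array well above background, so no fold is given. A two-sided exact permutation test of 4 arrays against 4 gave p = 0.0286, the lowest value it can reach, which became 0.565 after adjustment over all probes with 8 values.

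The spread between Dpt spots within an array was small beside the spread between tumours. Its SD over the spots of an array ran from 0.135 on FGFR1 KO 4 to 0.262 on WT 4, against SDs of 0.46 and 1.04 between tumours. At each of the 10 spots the highest FGFR1 KO value lay below the lowest WT value, with spot differences from -2.74 to -1.37. The median spot difference was -2.35 for the 4 spots inside the bright part and -2.30 for the 6 outside. On WT 1, the array with the highest Dpt, the spots inside averaged 3.68 and those outside 3.55, and on WT 3 they averaged 1.68 and 1.56. The Dpt result was therefore as large outside the bright part.

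**Figure D2:**
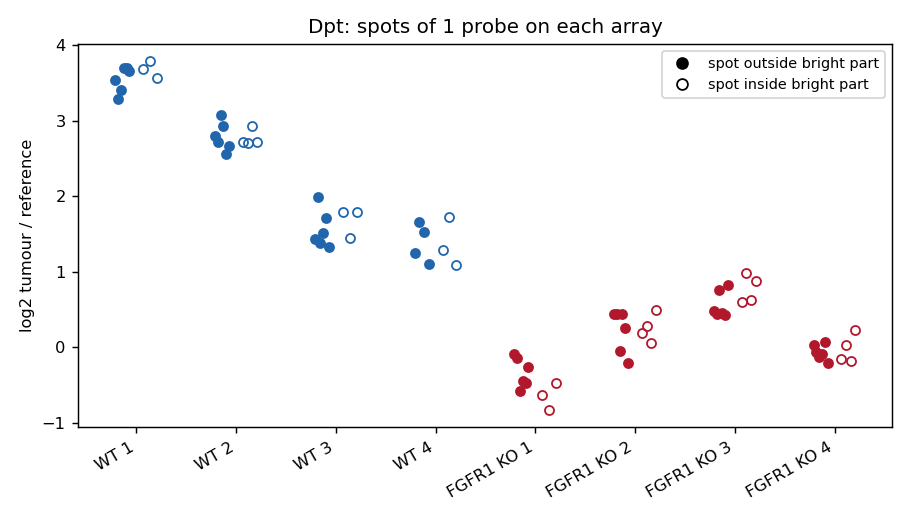
Log2 ratio of tumour to reference (vertical axis) at each spot of the Dpt probe on each array (horizontal axis), with WT in blue and FGFR1 KO in red, filled for spots outside the bright part and open for spots inside it. Spots marked as outliers are left out, which leaves 7 to 10 spots per array, and the WT spots all lie above the FGFR1 KO spots.

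The Dpt signal was dim in FGFR1 KO tumours. Raw red medians averaged over the spots ran from 69.95 to 872 over the 8 arrays, and on FGFR1 KO 2 the 10 spots read 61 to 81.5. A probe counted as well above background on an array where that held for a share of its spots over 0.5. Dpt reached this on 1 FGFR1 KO array and 3 WT arrays, so it passed the filter of 4 arrays at its limit. WT 3 missed it with 4 such spots, although its spots read 209.5 to 338 in red. Green was dim too, at 85 to 113.9 units, and well above background on 4 of the 8 arrays. With arrays also normalized between each other, red by itself differed by -2.01 and green by 0.23. Adding 50 units to every signal before the log is taken can shrink the ratios of dim probes. The difference was -2.35 without background correction and this offset, and -4.19 with Agilent's own log ratio. The offset alone was not varied, so its part in these values was not tested.

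Pi16, a secreted peptidase inhibitor that marks adventitial fibroblasts, did not follow Dpt. Its probe, A_55_P1999102, read 0.16, 0.05, 0.33 and -0.04 on FGFR1 KO 1 to 4 and 0.40, 0.39, 0.46 and 0.25 on WT 1 to 4. FGFR1 KO 3 lies within the WT range and the others lie below it. The difference was -0.25 ± 0.14 (SE; limma, adjusted p = 0.646), with a 95% confidence interval from -0.56 to 0.06 and p = 0.0571 by the exact permutation test. The probe was bright in both channels, at 6456 to 16140 red units and 9702 to 27900 green units, so the human reference also gave a strong signal. A ratio to such a reference does not show how much of the red signal is Pi16 transcript.

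Cd34, a sialomucin of adventitial fibroblasts, vessel lining and blood progenitors, was measured by 2 probes. The first, A_51_P204740, read -1.57, -1.42, -1.18 and -2.07 on FGFR1 KO 1 to 4 and -0.10, 0.35, -1.30 and -1.21 on WT 1 to 4. WT 3 and WT 4 lie within the FGFR1 KO range, while WT 1 and WT 2 lie above it. The second, A_55_P2009225, inside the bright part, read -2.21, -1.95, -1.87 and -2.05 against -0.34, -1.001, -1.73 and -0.43. Here the groups do not overlap, with 0.14 between them, and WT 4 sits beside WT 1, while WT 3 lies lowest. The differences were -0.99 ± 0.39 (SE) and -1.15 ± 0.29 (SE; limma, adjusted p = 0.547 and 0.36), and the exact permutation test gave p = 0.0857 and p = 0.0286. Without WT 1 and WT 2, the first probe differed by -0.30 ± 0.25 (SE). At the second probe, WT 3 and WT 4 averaged -1.08, against -2.02 over the FGFR1 KO arrays.

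Markers of vessel lining were high on the same WT arrays as the first Cd34 probe, while WT 4, high in the second, had the lowest of the WT medians. The median of 9 endothelial markers was 1.25 on WT 1 and 1.01 on WT 2, 0.52 and 0.41 on WT 3 and WT 4, and 0.36 to 0.71 on the FGFR1 KO arrays. Pecam1 (CD31), which joins endothelial cells to each other, differed by -0.64 ± 0.16 (SE; limma, adjusted p = 0.342). Of the 9, 8 had a difference below 0 with all arrays and 4 without WT 1 and WT 2. Among 4 tested markers of blood progenitors and platelets, Pf4, a platelet chemokine whose probe lay inside the bright part, had each FGFR1 KO array below the lowest WT array (-1.98 ± 0.35, SE; limma, adjusted p = 0.162), and Kit, the stem cell factor receptor, differed by 0.62 ± 0.74 (SE). The part of these cells in the Cd34 difference was not tested.

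Fap, the cell-surface serine protease by which activated tumour fibroblasts are usually recognised, had 1 probe, A_55_P2115225, outside the bright part. It read 0.94, 0.85, 1.76 and 0.79 on FGFR1 KO 1 to 4 and 3.14, 3.40, 2.17 and 1.84 on WT 1 to 4. The groups do not overlap, but FGFR1 KO 3 lies only 0.08 below WT 4, and WT 1 and WT 2 stand above the other WT arrays as they did for Dpt. FGFR1 KO tumours averaged 1.09 ± 0.45 (SD, n = 4) and WT tumours 2.64 ± 0.75 (SD, n = 4). The difference was -1.55 ± 0.38 (SE; limma, adjusted p = 0.342), or a 2.94-fold higher ratio in WT with a 95% confidence interval from 1.62 to 5.33 (exact permutation test, p = 0.0286). Red was well above background on all 8 arrays, at 112 to 772.5 units, and green, at 88 to 145 units, on 5 of 8. With arrays also normalized between each other, red by itself differed by -1.34 and green by 0.22. Without WT 1 and WT 2, the difference was -0.92 ± 0.30 (SE).

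Thy1, the glycoprotein CD90 on the surface of many fibroblasts, T cells and neurons, was also without overlap between the groups. Its probe, A_55_P2072035, outside the bright part, read -1.49, -1.56, -1.49 and -1.94 on FGFR1 KO 1 to 4 and -0.20, -1.12, -0.97 and -1.36 on WT 1 to 4. WT 1 stands above all other arrays, and the gap between the groups is 0.13. The difference was -0.71 ± 0.25 (SE; limma, adjusted p = 0.505; exact permutation test, p = 0.0286), or 1.63-fold. It was -0.47 without WT 1 and -0.46 without WT 1 and WT 2.

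T cell markers were highest on that same WT array. The median of 8 T cell markers reached 1.00 on WT 1, while the other 7 arrays lay from -0.23 to -0.01. Cd3e, a chain of the T cell receptor complex, differed by -0.35 ± 0.22 (SE; limma, adjusted p = 0.68). Of the 8 T cell markers, 6 had a difference below 0 with all arrays and 2 without WT 1 and WT 2. The part of T cells in the Thy1 value of WT 1 was not tested.

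Pdpn, which encodes podoplanin, a mucin-type membrane protein of activated fibroblasts, lymphatic vessels and basal epithelium that binds the platelet receptor CLEC-2, had another order of arrays than Fap. Its probe A_55_P1961395 read -0.60, -2.29, -1.88 and -3.21 on FGFR1 KO 1 to 4 and -1.93, -2.79, -0.98 and -0.76 on WT 1 to 4. The highest value of all 8 arrays was on an FGFR1 KO array, FGFR1 KO 1, and WT 2, high in Fap and Dpt, was the second lowest. The second probe, A_55_P2064962, had nearly this order of arrays, at -0.67, -2.54, -2.24 and -3.29 against -1.71, -2.80, -0.98 and -1.03. The differences were -0.38 ± 0.60 and -0.56 ± 0.58 (SE; limma, adjusted p = 0.868 and 0.795), with 95% confidence intervals from -1.73 to 0.98 and from -1.88 to 0.77. An interval of this width holds both no difference and a change of over 1 on the log2 scale.

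The Pdpn difference moved with single arrays. It was 0.028 without FGFR1 KO 4, -0.84 without FGFR1 KO 1, -0.77 without WT 2 and -1.12 without WT 1 and WT 2. The median of 6 basal epithelial markers was 1.41, 0.56, 0.76 and 0.27 on FGFR1 KO 1 to 4 and 0.42, -0.26, 0.89 and 1.45 on WT 1 to 4. The 3 arrays highest in Pdpn, FGFR1 KO 1, WT 3 and WT 4, were also the 3 highest in these markers. The same 3 arrays were highest in the median of 21 activated fibroblast genes, at 0.18, 0.52 and 0.35. Of 6 lymphatic markers, 2 were tested, and Prox1, the transcription factor of lymphatic identity, differed by 0.15 ± 0.22 (SE; limma, adjusted p = 0.856), while Lyve1, a hyaluronan receptor of lymphatic vessels, differed by -0.85 ± 0.32 (SE; limma, adjusted p = 0.54). Lyve1 was well above background on 5 arrays. The part of basal epithelium, activated fibroblasts and lymphatic vessels in the Pdpn values was not tested.

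S100a4, a small calcium-binding protein also called fibroblast-specific protein and abundant in macrophages, had 2 probes outside the bright part. Probe A_55_P1983450 read -4.37, -4.32, -4.81 and -5.22 on FGFR1 KO 1 to 4 and -3.01, -4.07, -4.22 and -3.81 on WT 1 to 4. Probe A_55_P1983448 read -4.88, -4.53, -5.18 and -5.75 against -3.37, -4.34, -4.53 and -3.76. For both probes WT 1 is the highest array and FGFR1 KO 4 the lowest, and the groups are separated by 0.10 and 0.01, so that in the second probe FGFR1 KO 2 and WT 3 are practically level. The differences were -0.90 ± 0.30 and -1.09 ± 0.33 (SE; limma, adjusted p = 0.48 and 0.44), or 1.87-fold and 2.13-fold, with p = 0.0286 for each by the exact permutation test. The strongly negative ratios come with a green signal of 17260 to 25030 units against 214 to 1497 in red, so the ratio is no measure of abundance.

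Most macrophage markers differed in the same direction as S100a4 but not in the same order of arrays. The median of 9 macrophage markers was 0.64 on WT 1 and 1.05 on FGFR1 KO 4, and ran from 0.52 to 1.05 in FGFR1 KO and from 0.44 to 1.53 in WT. Of the 9, 7 had a difference below 0 with all arrays (median -0.22) and 9 without WT 1 and WT 2 (median -0.35). Mrc1, the mannose receptor of tissue macrophages, was the 1 that had each FGFR1 KO array below the lowest WT array, at -1.41 ± 0.43 (SE; limma, adjusted p = 0.443). The part of macrophages in the S100a4 difference was not tested.

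**Figure D3:**
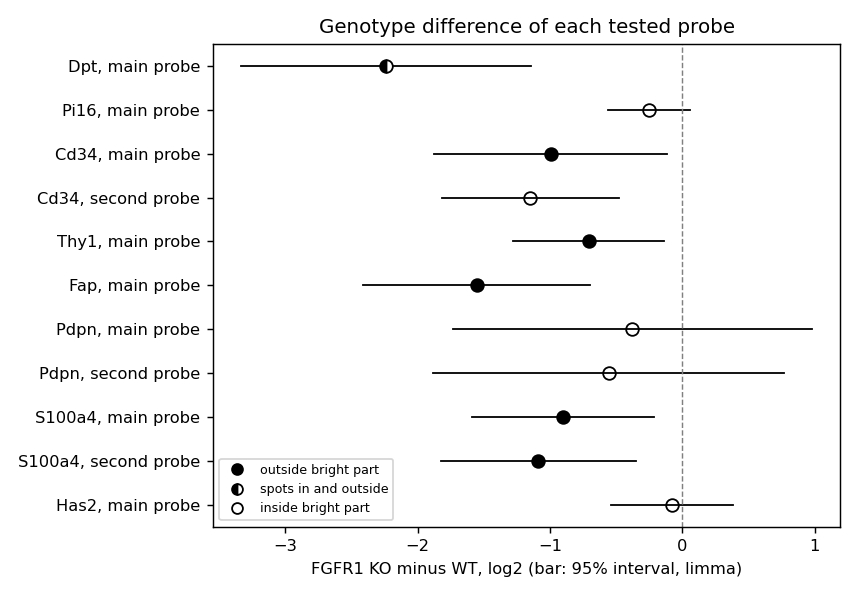
Difference FGFR1 KO minus WT on the log2 scale (horizontal axis) for each of the 11 tested probes (vertical axis), with 95% confidence intervals from limma. Filled, part-filled and open points stand for probes outside the bright part, with spots on both sides and inside it, and the intervals of Pi16, Pdpn and Has2 include 0.

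Has2 encodes the main enzyme that makes hyaluronan, the large sugar polymer of loose stroma. Its probe, A_51_P213359, read -0.12, -0.64, -0.90 and -0.74 on FGFR1 KO 1 to 4 and -0.43, -0.65, -0.76 and -0.24 on WT 1 to 4. The groups overlap throughout, and FGFR1 KO 1 is the highest array, as for Pdpn. The difference was -0.08 ± 0.20 (SE; limma, adjusted p = 0.922), with a 95% confidence interval from -0.54 to 0.38. A change of more than 1 on the log2 scale in either direction lies outside this interval. The interval measures the spread between arrays only. The Has2 spot lay inside the bright part, whose effect on this difference was not tested.

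Il6 encodes the cytokine interleukin 6, which inflammatory fibroblasts secrete. Its 1 probe, A_55_P1997756, was not well above background on any array by the rule given for Dpt, so Il6 was not tested and has no fold. The spot outside the bright part read between 57.5 and 71.5 red units on all 8 arrays. The spot inside read 277 on WT 4 and 54.5 to 87 on the other 7. The high Il6 value of WT 4 in the average of both spots (0.41, against -1.14 to -0.19 elsewhere) therefore came from a single spot inside the bright part, with a log2 ratio of 1.50 there against -0.67 at the other spot of that array.

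General fibroblast genes outside the 9 members were measured well above background on all 8 arrays. Lum, which encodes lumican, a proteoglycan of collagen fibrils, differed by -2.19 ± 0.44 (SE; limma, adjusted p = 0.217), with each FGFR1 KO array below the lowest WT array. The fibrillar collagen genes Col1a1, Col1a2 and Col3a1 differed by -1.93 ± 0.74, -1.65 ± 0.53 and -1.68 ± 0.60 (SE), and Pdgfra, the growth factor receptor of fibroblasts, by -0.50 ± 0.21 (SE; inside the bright part). Without WT 1 and WT 2 the 3 collagen differences were -2.55, -2.04 and -1.91, farther from 0. Those of Lum and Pdgfra were then -1.80 and -0.34, nearer to 0, as were those of Fap and Dpt. The difference of Dcn, which encodes decorin, went from -2.22 with all arrays to -1.27. Pericyte markers, 6 of 7 tested, had a median difference of -0.45 with all arrays and 0.16 without WT 1 and WT 2.

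Wider lists of fibroblast genes were set beside the members. Of 23 genes of resting fibroblasts, 22 were tested and 20 had a difference below 0, with a median of -0.85 against -0.002 over all genes. By limma, 0 passed over all probes, 10 lay lower at an unadjusted p under 0.05 and 0 lay higher, and 7 did not overlap between the groups, each lower in FGFR1 KO. Here and in the lists that follow, the shares of all genes are 4.78% lower and 3.1% higher at that p, and 2.45% lower without overlap. Abi3bp, a matrix protein gene well above background on 5 arrays, differed by -1.49 ± 0.37 (SE). Efemp1, which encodes fibulin-3, differed by -2.16 ± 0.54 (SE), Mfap5, a microfibril gene, by -1.27 ± 0.36 (SE) and Fbln1, which encodes fibulin-1, by -0.64 ± 0.18 (SE), the last 2 inside the bright part. The list's median was -0.70 to -0.20 on the FGFR1 KO arrays and -0.01 to 0.38 on the WT arrays. Of the 16 genes with probes outside the bright part, 5 lay lower at that p, with a median of -0.85 over the 16. The rest of the 10 were among the 6 genes with probes inside it.

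Activated fibroblast genes overlapped between the groups in their median per array. Of 24 genes, 21 were tested, 17 had a difference below 0, and the median was -0.63. By limma, 0 passed over all probes, while 6 lay lower and 0 higher at an unadjusted p under 0.05, and 2 did not overlap. Fn1, which encodes fibronectin, differed by -1.45 ± 0.42 (SE), Tgfbi, a matrix gene induced by TGF-beta, by -1.21 ± 0.36 (SE), the intermediate filament gene Vim by -1.18 ± 0.36 (SE; inside the bright part) and the heparan sulfatase gene Sulf1 by -0.62 ± 0.21 (SE). Sulf1 was well above background on 4 arrays, the limit of the filter. The list's median was 0.18 on FGFR1 KO 1, above the 0.01 and -0.49 of WT 1 and WT 2 but below the 0.52 and 0.35 of WT 3 and WT 4. On the other FGFR1 KO arrays it ran from -1.25 to -0.09. Without WT 1 and WT 2, 20 of the 21 had a difference below 0 and the median was -1.03, while the median of the resting list was then -0.52. With all arrays, FGFR1 KO 1 was the highest of the FGFR1 KO arrays in this list, in Pdpn and in Has2, while WT 1 and WT 2 were high in resting genes, Dpt and Fap.

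Inflammatory fibroblast genes stood near the middle of all genes. Of 20 genes, 17 were tested, 10 had a difference below 0, and the median was -0.05, with 0 passing over all probes by limma and 2 lower and 0 higher at an unadjusted p under 0.05. These 2 were Lif, a cytokine of the interleukin 6 family whose probe lay inside the bright part (-0.89 ± 0.18, SE), and C3, the central complement protein (-1.07 ± 0.31, SE). The chemokine genes Ccl7 and Cxcl12 differed by -0.89 ± 0.43 and -1.16 ± 0.61 (SE), and without WT 1 and WT 2 Cxcl12 differed by -0.07.

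The pathways of Il6 and Has2 had few genes at that p. Of 24 genes of interleukin 6 family signalling, 23 were tested, with 12 below 0, 11 above 0 and a median of -0.03. By limma, 0 passed over all probes, and 2 lay lower and 0 higher at an unadjusted p under 0.05, namely Lif and the phosphatase gene Ptpn11 (-0.39 ± 0.17, SE), both inside the bright part, and 0 of the 13 genes outside it did so. The transcription factor gene Junb differed by 0.49 ± 0.24 (SE) and Timp1, a protease inhibitor gene, by -0.41 ± 0.22 (SE), both inside the bright part. Of 20 hyaluronan genes, 17 were tested, with 11 below 0 and a median of -0.22, and by limma 0 passed over all probes, while 2 lay lower and 0 higher at that p. Those 2 were Hexa, a lysosomal hexosaminidase that helps break hyaluronan down (-0.91 ± 0.29, SE), and Lyve1, described with Pdpn. Hyal1, a hyaluronidase, and Stab1, a scavenger receptor, differed by -0.63 ± 0.29 and -0.58 ± 0.27 (SE), both inside the bright part. Has1, another hyaluronan synthase, was not well above background on any array.

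Genes tied to single members by binding or kinship numbered 31, of which 27 were tested. By limma, 0 passed over all probes, 3 lay lower and 1 higher at an unadjusted p under 0.05, and the median was -0.07. Those lower were Fn1 and Dcn (-2.22 ± 0.78, SE), whose proteins bind dermatopontin, and Prep, a prolyl protease related to Fap (-0.82 ± 0.27, SE; inside the bright part). Crispld2, a secreted relative of Pi16 whose probe lay inside the bright part, had each FGFR1 KO array above the highest WT array, at 1.42 ± 0.48 (SE; limma, adjusted p = 0.483), against 1.79% of genes that do so.

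The WT tumours differed among themselves in other tissue. The median of 7 fat markers reached 4.13 on WT 1 and 4.74 on WT 2 and lay between 0.16 and 0.57 elsewhere, and that of 7 skeletal muscle markers reached 8.97 on WT 2 and 2.99 on WT 1 and lay between -0.33 and 1.00 elsewhere. The median of 8 luminal epithelial markers lay from 1.95 to 2.87 except on WT 1, at 1.50, and WT 2, at -0.93. WT 1 and WT 2 were also the arrays highest in Dpt, Fap and the first probe of Cd34, and the part of fat and muscle tissue in those values was not tested. With WT 1 and WT 2 left out, each of the 8 differences stayed below 0, and the median over the 8 was -0.56 in place of -0.80. Dpt then differed by -1.39 ± 0.29 (SE), Fap by -0.92 and S100a4 by -0.665, and at an unadjusted p under 0.05 by limma, 2 of the 8 lay lower, Dpt and Fap. Over all genes, 7883 of 16754 had a difference below 0 without these arrays, and the share at that p was not computed.

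**Figure D4:**
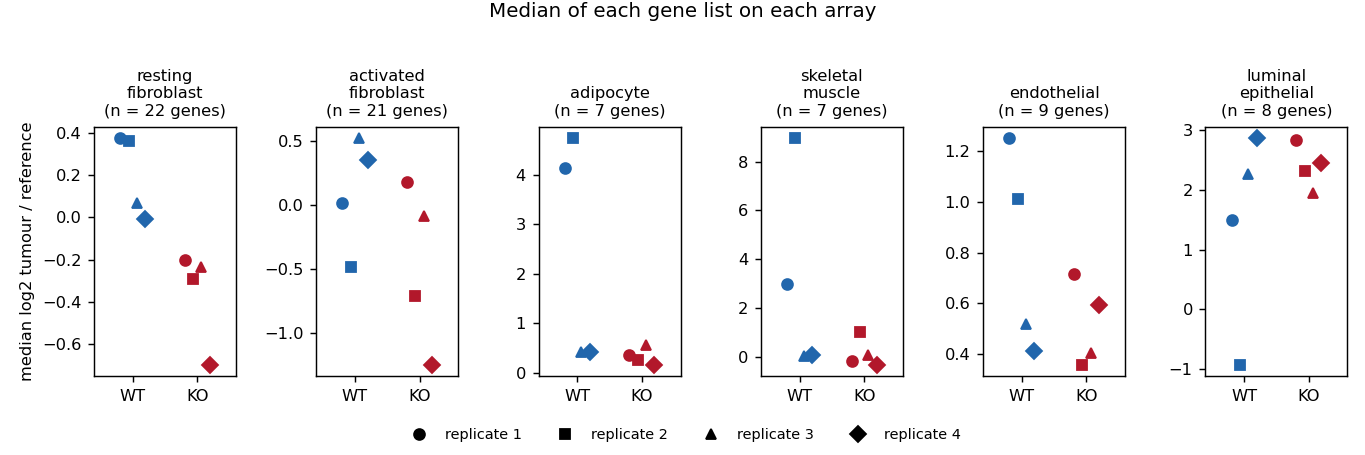
Median log2 ratio of tumour to reference (vertical axis, a separate scale in each panel) of 6 gene lists on the 4 WT (blue) and 4 FGFR1 KO (red) arrays, with symbols for replicate numbers and the number of genes in each title. Resting fibroblast medians do not overlap between the groups, activated ones do, and WT 1 and WT 2 lie high in fat, muscle and endothelial markers and low in luminal ones.

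**Figure D5:**
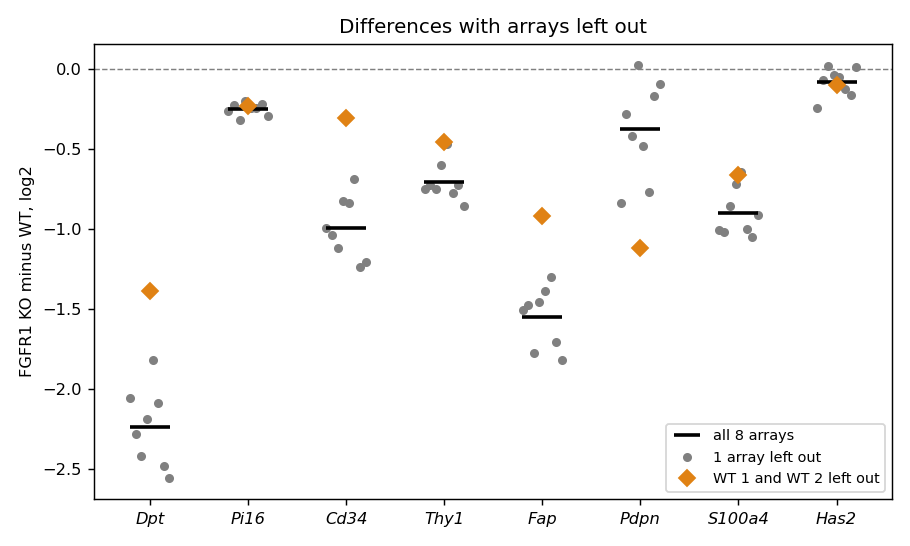
Difference FGFR1 KO minus WT on the log2 scale (vertical axis) for the 8 tested markers with all 8 arrays (black line), with 1 array left out (grey points) and with WT 1 and WT 2 left out (orange diamonds). The diamonds of Dpt, Fap, Cd34, Thy1 and S100a4 lie nearer to 0 than the lines, and that of Pdpn lies farther, at -1.12.

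Genes with a pattern like that of Fap, Dpt and Thy1 were found by the root mean square difference between centred values over the 8 arrays, among 15298 other named genes. Near Fap were Sh2b2, an adaptor gene of receptor kinase signalling (0.24), and Aldh1l1, a folate enzyme gene (0.29), where the median gene lay 0.985 away. Near Dpt were Mndal (0.36) and the mast cell protease gene Mcpt4 (0.38), against a median of 1.35. Near Thy1 were Olfr1446 (0.11) and the histocompatibility genes H2-Q8 (0.15) and H2-K2 (0.15), against a median of 0.595. Probes of H2 genes can bind transcripts of near-identical family members.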

How the data were processed

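Tumour RNA of 8 samples was read on 2-colour Agilent arrays. Per the file headers, Agilent Feature Extraction 11.0.1.1 was used and probes were designed on mm9; the deposited median signals and backgrounds are intensities on a linear scale, the deposited processed signals are background-subtracted and dye-normalized intensities, and the deposited log ratio is log10 of red over green. The deposited series matrix was found to hold log2 red over green (correlations of 0.985 to 0.991 with the values used here, medians from -0.0152 to 0.0155); its centring and normalization are not given in the sources used here.

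In R 4.3.3 with limma 3.58.1, medians were corrected by normexp (offset 50), normalized by loess within arrays and turned to log2 ratios. Control and outlier spots were left out and the spots of a probe averaged. Tests covered the 39775 of 55681 probes with red well above background (a share of spots over 0.5) on 4 or more arrays and 3 or more values per group. Genes were named through RefSeq accessions (28331 probes) and represented by their probe brightest in red. The genotypes were compared by lmFit and eBayes on the 8 arrays; p-values were adjusted by Benjamini-Hochberg across every probe tested, with a threshold of 0.05; exact permutation tests used the 70 splits of 4 against 4. The fit was also tested on simulated arrays. Precision is limited by how many arrays there are. The members and gene lists were chosen with earlier results of these data known. Named are all members with every probe, up to 4 genes per list by smallest p, defining markers of other cell types, and the 3 genes nearest to Fap, Dpt and Thy1, of which some are not reported here. Alternatives covered background correction, normalization, filters, the bright part, weights, a replicate block and left-out arrays.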

Additional observations from a re-analysis of the deposited data

Results flagged for a closer look

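Of 24 sets of 4 arrays examined (12 probes in each genotype), 2 held an array far from the other 3, where chance alone marks about 1 in 20. The Fap probe read 1.76 on FGFR1 KO 3, against 0.79, 0.85 and 0.94 on the other FGFR1 KO arrays, which brings that tumour close to WT 4 (1.84). The Thy1 probe read -1.94 on FGFR1 KO 4, against -1.56, -1.49 and -1.49 on the other FGFR1 KO arrays. Both were marked by the gap to the nearest array, which took up 0.844 and 0.847 of the range of the 4 arrays, above Dixon's critical value.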

How the results depend on the processing

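The 8 marker differences were recomputed under other ways of processing and with arrays left out. Dpt, Fap, Thy1, Cd34, S100a4 and Pi16 stayed below 0 in each setting that kept red as the tumour and gave a value. Dpt had no value with red above background required on all 8 arrays, and Pi16, Pdpn and Has2 had none with the bright part left out. With green taken as the sample, all signs turn by construction, to 1.55 for Fap, 0.71 for Thy1, 0.38 for Pdpn, 2.24 for Dpt, 0.25 for Pi16, 0.99 for Cd34, 0.90 for S100a4 and 0.08 for Has2. Has2 turned to 0.057 with Agilent's log ratio and to 0.022 and 0.014 without FGFR1 KO 3 or WT 4, and Pdpn to 0.028 without FGFR1 KO 4; with 1 array left out Has2 ran from -0.24 to 0.022 and Pdpn from -0.84 to 0.028. No marker passed over all probes in any setting. The 4 probes called over all probes became 0 with Agilent's log ratio, median centring, scale normalization, red signal alone, red above background on all 8 arrays, the bright part left out, trend and robust eBayes, the replicate block, and without both WT 1 and WT 2. They became 11 with array weights, 139 without a filter on red signal and 6 with the series matrix, and 0 to 1 with 1 array left out. With a gene's probes averaged, only named genes were counted, which leaves these 4 unnamed probes out. In that setting 0 genes passed, as with 1 probe per gene. The count of markers at an unadjusted p under 0.05 was 2 without both WT 1 and WT 2 and 3 to 5 with 1 array left out, and that of markers that did not overlap was 4 to 6 there. Smaller groups separate more easily, and no share over all genes was computed for these sets of arrays. The shares given for 4 arrays against 4 are therefore no baseline for these counts. Fap overlapped under scale normalization, Thy1 with red signal alone, and S100a4 with Agilent's log ratio and with median centring. Scale normalization gave -1.49 for S100a4, -0.66 for Pdpn and -0.17 for Has2, array weights gave -0.73 for Pdpn and -0.17 for Has2, red signal alone gave -0.08 for Pi16, and Agilent's log ratio gave -4.19 for Dpt. Same-numbered arrays did not deviate together (correlations from -0.106 to 0.109), so the numbers were not taken as pairs; with the replicate block Dpt differed by -2.24 ± 0.51 (SE; limma, adjusted p = 0.482). The cause of these shifts was not tested. Signal over background limits Dpt in FGFR1 KO tumours and Il6 in all of them, and dim green limits the ratios of Dpt and Fap.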
